A study of Mus musculus with 14 samples.

Results

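The 8 genes described here encode cytochrome P450 enzymes of the mouse CYP2A, CYP2B and CYP2D subfamilies: Cyp2a4, Cyp2a5, Cyp2a12, Cyp2a22, Cyp2b9, Cyp2b10, Cyp2b13 and Cyp2d9. They were taken as a fixed list of symbols, and the level of a gene is the sum of its transcripts' estimated counts. All 8 were found among the 24983 genes detected with any count, and all 8 passed the filter on low counts that left 13131 genes for testing. Messenger RNA was sequenced from the livers of high-fat-fed mice, 14 samples in all. In the iBAT group (n = 6) the mice carried a silk scaffold with pre-adipocytes taken from the stromal cells of brown fat and differentiated. In the Sham group (n = 8, titled Sham-WT) the scaffold held no cells. The diet and a scaffold were thus common to both groups, the titles mark the transplant as 2x without saying what that means, and no source used here gives strain, sex or age.

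Cytochrome P450 enzymes of the liver oxidise steroids, drugs and dietary compounds with electrons from the reductase encoded by Por. Several mouse CYP2 genes are sexually dimorphic, because the pulses of growth hormone in males act through the transcription factor STAT5B to maintain male-type genes such as Cyp2d9 and to hold down female-type genes such as Cyp2a4, Cyp2b9 and Cyp2b13. Others answer mainly to xenobiotics through the nuclear receptors CAR (Nr1i3) and PXR (Nr1i2), with Cyp2b10 as the usual readout of CAR and Cyp2a5 inducible by several stresses. The question addressed was whether liver expression of these genes differed between recipients of the transplant and recipients of the empty scaffold.

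The CYP2A and CYP2B genes lie in 1 cluster and come in similar pairs, and the sequences below are shown because they set how far reads can be told apart and which promoter each gene of a pair carries. Promoter windows are from RefSeq (GRCm38.p6) and run from 250 bases before to 50 after the gene start. Capitals mark bases that differ from, or have no partner in, the other gene of the pair. Cyp2a4 (chr7:26306942-26307241, plus strand) and Cyp2a5 (chr7:26835089-26835388, plus strand) differed at 5 aligned bases, with a shift of 1 base at the ends (97.7% identity).
Cyp2a4 promoter: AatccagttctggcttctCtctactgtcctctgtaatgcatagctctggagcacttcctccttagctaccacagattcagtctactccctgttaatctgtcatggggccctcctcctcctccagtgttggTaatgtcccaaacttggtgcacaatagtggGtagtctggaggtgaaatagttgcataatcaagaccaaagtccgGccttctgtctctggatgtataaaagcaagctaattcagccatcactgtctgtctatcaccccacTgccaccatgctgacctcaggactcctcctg
Cyp2a5 promoter: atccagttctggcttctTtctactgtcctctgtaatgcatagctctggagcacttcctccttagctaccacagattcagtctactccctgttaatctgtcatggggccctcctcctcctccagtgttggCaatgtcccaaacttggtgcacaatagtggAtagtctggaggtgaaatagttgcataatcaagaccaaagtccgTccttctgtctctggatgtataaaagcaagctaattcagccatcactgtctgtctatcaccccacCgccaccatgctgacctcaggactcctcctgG

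Cyp2b9 (chr7:26173159-26173458, plus strand) and Cyp2b13 (chr7:26061245-26061544, plus strand) differed at 2 of 300 bases, and each was 71.7% identical to the window of Cyp2b10.
Cyp2b9 promoter: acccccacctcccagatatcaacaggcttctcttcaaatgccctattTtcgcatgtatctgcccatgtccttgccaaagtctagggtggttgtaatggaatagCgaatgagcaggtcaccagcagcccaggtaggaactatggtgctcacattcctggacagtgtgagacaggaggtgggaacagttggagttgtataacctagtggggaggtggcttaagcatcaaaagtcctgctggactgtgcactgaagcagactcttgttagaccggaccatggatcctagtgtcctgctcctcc
Cyp2b13 promoter: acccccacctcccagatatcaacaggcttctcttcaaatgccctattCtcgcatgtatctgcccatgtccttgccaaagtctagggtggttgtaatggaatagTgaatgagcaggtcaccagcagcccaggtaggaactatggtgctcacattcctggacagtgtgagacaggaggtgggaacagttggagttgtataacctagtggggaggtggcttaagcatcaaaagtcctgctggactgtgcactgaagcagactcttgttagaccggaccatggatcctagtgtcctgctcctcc

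The coding sequences of Cyp2a4 and Cyp2a5 differed at 23 of 1485 bases (98.5% identity), those of Cyp2a12 and Cyp2a22 at 45 of 1479 (97.0%), and those of Cyp2b9 and Cyp2b13 at 108 of 1476 (92.7%). The 60 coding bases with the most differences between the genes of a pair were bases 596 to 655 of the GENCODE M21 transcripts for Cyp2a4 and Cyp2a5, and bases 1056 to 1115 for Cyp2b9 and Cyp2b13, counted from the start codon.
Cyp2a4 coding: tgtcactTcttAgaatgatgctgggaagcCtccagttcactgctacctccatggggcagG
Cyp2a5 coding: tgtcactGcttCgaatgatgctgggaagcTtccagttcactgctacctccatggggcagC
Cyp2b9 coding: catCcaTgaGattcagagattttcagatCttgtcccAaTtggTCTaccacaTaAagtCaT
Cyp2b13 coding: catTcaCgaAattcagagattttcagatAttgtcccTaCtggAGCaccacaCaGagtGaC

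Of the 31-base words in Cyp2a4 transcripts, 715 of 1708 (41.9%) occurred in no other annotated gene, against 967 of 2128 (45.4%) for Cyp2a5. The shares were higher for the other members, from 59.2% for Cyp2b13 to 80.6% for Cyp2b10. Cyp2b13 had 369 words in common with the annotated gene Gm45225 and 362 with Cyp2b9. Gm45225 was not part of the merged counts given below. Values of single genes, and of Cyp2a4 above all, therefore rest on how the authors' counting divided shared reads. In the promoter windows the letters TATAAA, the TATA box, were found on either strand in Cyp2a4, Cyp2a5, Cyp2a12, Cyp2a22 and Cyp2d9 and not in the 3 CYP2B windows, against 13.6% of all promoter windows. The letters CAAAGTCC, a core of HNF4A sites, were found in Cyp2a4 and Cyp2a5 and in 1.42% of all windows. The STAT5 consensus TTCNNNGAA was in none of the 8 windows and in 8.30% of all windows. No motif overlapped another.

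The 14 libraries held 22898793 to 28910968 estimated counts in the iBAT group and 19482580 to 28723928 in the Sham group. By edgeR's quasi-likelihood test, 990 of 13131 genes (7.54%) were called with the threshold set at an adjusted p of 0.05. In iBAT livers 3.31% were higher and 4.23% lower. Of the calls 43.9% were higher, against 58.6% once length and GC trends were removed and 4.06% when libraries were scaled by their totals without TMM. With 1 library left out at a time, 0.385% to 7.44% were called higher and 0.657% to 7.12% lower, the fewest without iBAT replicate 1 and the most without Sham replicate 7. Summed hepatocyte markers (10 genes, 1 higher, none lower) ranged from 107779 to 159272 CPM in iBAT livers and from 91399 to 159294 CPM in Sham livers. Of 10 macrophage markers 5 were lower, at summed levels of 153 to 231 CPM in iBAT livers and 195 to 464 CPM in Sham livers. Of 10 stellate markers 3 were lower (151 to 279 against 184 to 421 CPM), and of 10 sinusoidal endothelial markers 2 were lower (105 to 162 against 136 to 219 CPM), with no marker of these 4 lists at 0 in all libraries. Their part in the results on the CYP2 genes was not tested, and in bulk liver fewer cells of a type and less RNA per cell cannot be told apart.

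Expressed per transcript length, the members spanned a range from Cyp2d9 to Cyp2b10. In iBAT livers Cyp2d9 averaged 766 ± 116 TPM, Cyp2a5 490 ± 119, Cyp2a12 316 ± 56.1, Cyp2b9 99.9 ± 24.4, Cyp2a22 10.6 ± 3.03, Cyp2b13 7.73 ± 5.61, Cyp2a4 2.04 ± 1.04 and Cyp2b10 0.541 ± 0.168 (SD, n = 6). In Sham livers the order was the same but for Cyp2b13 standing above Cyp2a22. There the averages were 748 ± 70.9 TPM for Cyp2d9, 511 ± 200 for Cyp2a5, 375 ± 54.6 for Cyp2a12, 186 ± 57.3 for Cyp2b9, 29.7 ± 14.9 for Cyp2b13, 24.0 ± 6.98 for Cyp2a22, 8.16 ± 4.996 for Cyp2a4 and 0.685 ± 0.359 for Cyp2b10 (SD, n = 8). In both groups the ranges of Cyp2d9 and Cyp2a5 overlapped, as did those of Cyp2b13 and Cyp2a22. Those of Cyp2a5 and Cyp2a12 overlapped in Sham livers, those of Cyp2a22 and Cyp2a4 in Sham livers, and those of Cyp2a4 and Cyp2b10 in iBAT livers.

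**Figure D1:**
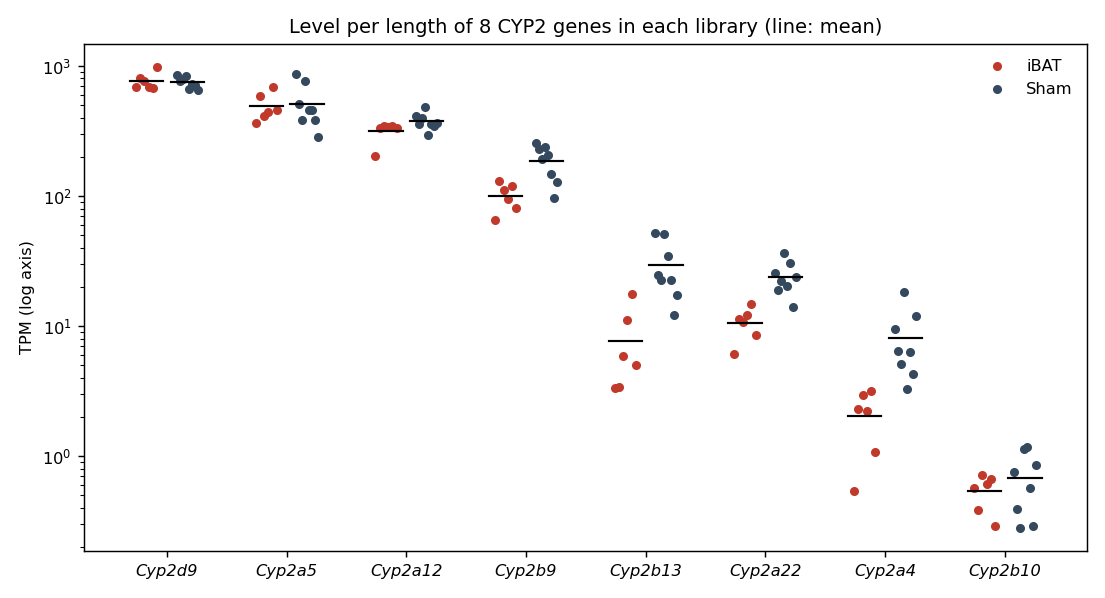
TPM (levels per transcript length, log axis) of each member in each library, with iBAT left of Sham and the mean as a line. Cyp2d9, Cyp2a5 and Cyp2a12 stand above the other members in both groups, while Cyp2b10 stays near or below 1 TPM.

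Among the female-type genes, Cyp2a4 was called lower in iBAT livers and Cyp2b13 and Cyp2b9 stood lower without passing the threshold. Cyp2a4 (ENSMUSG00000074254), a steroid hydroxylase, had a lowest, median and highest level of 1.14, 3.89 and 6.29 CPM (counts scaled to library size by TMM) in iBAT livers, against 5.05, 9.28 and 19.6 CPM in Sham livers. In 5 of 6 iBAT livers the level lay below every Sham liver, and the groups overlapped through iBAT replicate 5. In TPM, to which no TMM scaling was applied, they did not overlap. The highest iBAT level was 3.16 TPM and the lowest Sham level 3.29 TPM. The log2 fold change was -1.55 ± 0.37 (SE, adjusted p = 0.0298, edgeR's quasi-likelihood test). Behind these levels stood 30 to 144 estimated counts per iBAT library and 117 to 632 per Sham library. The call was lost without iBAT replicate 1 (-1.36, adjusted p = 0.0617), Sham replicate 4 (-1.36, 0.0585) or Sham replicate 8 (-1.40, 0.0528).

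Cyp2b13 (ENSMUSG00000040583), a female-type enzyme of the CYP2B subfamily, had 4.98, 9.99 and 34.9 CPM in iBAT livers (lowest, median, highest) and 24.8, 33.4 and 64.4 CPM in Sham livers. Again 5 of 6 iBAT livers lay below every Sham liver, the exception being iBAT replicate 5. The log2 fold change of -1.41 ± 0.41 had an adjusted p = 0.0503 and was therefore not called. It was called without iBAT replicate 5 (-1.86, adjusted p = 0.0314) or Sham replicate 7 (adjusted p = 0.0407). Cyp2b9 (ENSMUSG00000040660), whose promoter window is nearly the same, was the more abundant of the pair, with 134, 182 and 232 CPM in iBAT livers and 189, 248 and 316 CPM in Sham livers. Its log2 fold change was smaller, at -0.46 ± 0.14 (adjusted p = 0.0557), and 3 of 6 iBAT livers lay below every Sham liver. Without Sham replicate 7 it was called (adjusted p = 0.0319). With the counts of Cyp2b9 and Cyp2b13 merged into 1 feature, the pair was called lower, at -0.55 ± 0.16 (adjusted p = 0.0437).

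**Figure D2:**
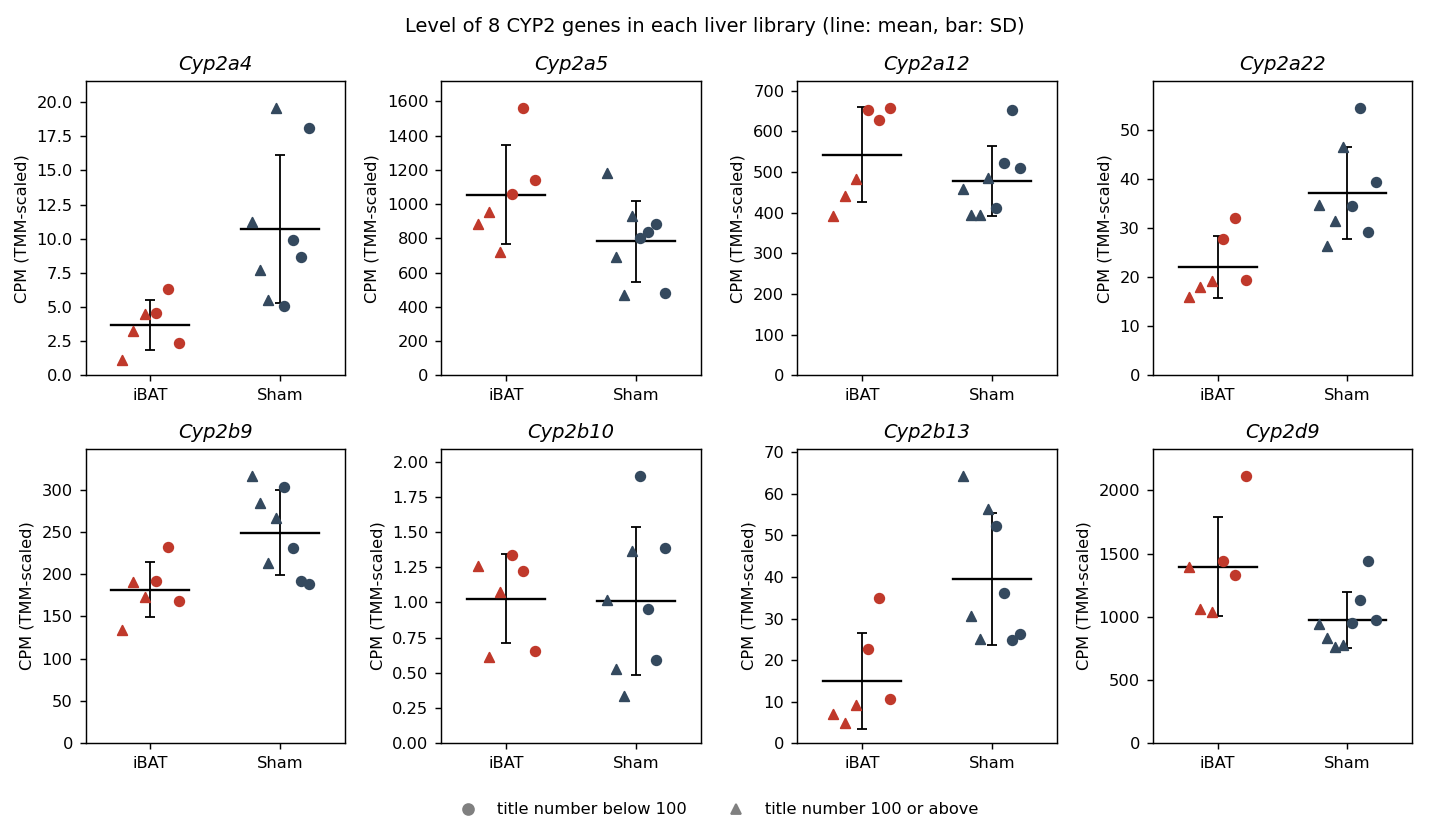
TMM-scaled CPM of each member in each library, with iBAT left of Sham, the mean as a line and the SD as a bar, and symbols for the range of the title number. Cyp2a4, Cyp2a22 and Cyp2b13 sit lower in most iBAT libraries, while the groups of Cyp2b10 lie over each other.

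Cyp2a22 (ENSMUSG00000091867), a close relative of Cyp2a12, was the other member called, also lower. It had 16.01, 19.3 and 32.0 CPM in iBAT livers and 26.4, 34.5 and 54.4 CPM in Sham livers (lowest, median, highest), and 4 of 6 iBAT livers lay below every Sham liver. The log2 fold change was -0.75 ± 0.18 (adjusted p = 0.0288). It was not called without iBAT replicate 1 (-0.67, adjusted p = 0.0799), and its adjusted p was also above 0.05 without iBAT replicate 3, Sham replicate 4 or Sham replicate 8. A transcript annotated with a retained intron held 15.2% to 20.2% of the Cyp2a22 counts in iBAT libraries with title numbers below 100 and 7.43% to 25.4% in Sham libraries of that range, but 23.3% to 41.9% and 25.2% to 51.5% in those numbered 100 or above. Counted from protein-coding transcripts alone, Cyp2a22 stood at -0.67 ± 0.23 and was not called (adjusted p = 0.0697).

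Cyp2a12 (ENSMUSG00000060407), which in mouse liver hydroxylates bile acids and steroids, did not follow its relative. It had 393, 556 and 658 CPM in iBAT livers and 394, 472 and 652 CPM in Sham livers, ranges that almost coincide, and its log2 fold change was 0.18 ± 0.14 (adjusted p = 0.404). Cyp2a5 (ENSMUSG00000005547), the coumarin hydroxylase, had 720, 1007 and 1562 CPM in iBAT livers and 467, 818 and 1179 CPM in Sham livers. Its log2 fold change of 0.43 ± 0.20 did not pass (adjusted p = 0.167). In TPM, without TMM scaling, Cyp2a5 and Cyp2a12 averaged less in iBAT than in Sham livers. With effective length taken into account and TMM scaling kept, Cyp2a5 stood at 0.41 and Cyp2a12 at 0.19, near the main values. With libraries scaled by totals alone they stood at 0.19 and -0.04. The direction of both thus differed between TPM and TMM-scaled counts, and the cause was not tested.

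The male-type gene Cyp2d9 (ENSMUSG00000068086), a testosterone hydroxylase, was the most abundant member. It had 1040, 1362 and 2115 CPM in iBAT livers and 759, 948 and 1440 CPM in Sham livers, and every iBAT liver lay above the median of the Sham livers. The log2 fold change was 0.52 ± 0.17 and did not pass (adjusted p = 0.0650). Without iBAT replicate 6, the highest library, it was 0.36 (adjusted p = 0.150), and without Sham replicate 7 it was 0.62 and called (adjusted p = 0.0248). In TPM, again without TMM scaling, the Cyp2d9 means of both groups lay within 1 SD of each other. A 534-base protein-coding transcript of Cyp2d9 had 21 to 105 estimated counts in iBAT and 14 to 69 in Sham libraries numbered below 100, against 415 to 801 and 624 to 990 in those numbered 100 or above, while the 1712-base transcript held 95.3% of the gene's mean counts in iBAT libraries and 94.5% in Sham libraries.

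Cyp2b10 (ENSMUSG00000030483), the gene most closely tied to CAR activity, was scarcely expressed in either group. It had 0.612, 1.15 and 1.34 CPM in iBAT livers and 0.339, 0.986 and 1.90 CPM in Sham livers, from 15 to 33 and 10 to 44 estimated counts. The log2 fold change was 0.02 ± 0.33 (adjusted p = 0.972), with a 95% interval from -0.70 to 0.74. Changes inside this interval are not excluded. The interval is not adjusted for the number of genes tested, so changes somewhat beyond it could also go uncalled. With libraries scaled by totals alone the log2 fold change was -0.21.

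In all, 2 of 8 members were called lower and none higher, beside 4.23% and 3.31% of all tested genes. No member's groups were free of overlap in CPM, which was the case for 0.571% of tested genes higher and 0.701% lower in iBAT livers. The median log2 fold change of the 8 was -0.22, beside -0.02 over all tested genes.

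Within the similar pairs, the less abundant gene took a smaller part of the pair's counts in iBAT livers. Cyp2a4 made up 0.129%, 0.371% and 0.622% of the Cyp2a4 and Cyp2a5 counts in iBAT livers (lowest, median, highest) and 0.628%, 1.13% and 3.61% in Sham livers, with no overlap. The means differed by -1.10 percentage points (0.354% ± 0.175, n = 6, against 1.45% ± 0.961, n = 8), with a two-sided exact permutation p = 0.00266 over 3003 splits. This share comes from the counts already compared for both genes, so it adds no separate support. It also rests on how shared reads were divided, which matters most for Cyp2a4. Cyp2a22 made up 2.87%, 3.92% and 4.84% of its counts with Cyp2a12 in iBAT livers and 4.30%, 7.29% and 9.44% in Sham livers. Cyp2b13 made up 2.55%, 5.55% and 13.1% of its counts with Cyp2b9 in iBAT livers and 9.74%, 12.9% and 17.5% in Sham livers. The last pairs overlapped and were described without a test. Computed from TPM, the Cyp2a4 shares of the groups overlapped by the highest iBAT and the lowest Sham library, at 0.715436% and 0.714875%, and the means differed by -1.25 points (exact permutation p = 0.0030). These shares do not depend on how libraries are scaled.

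**Figure D3:**
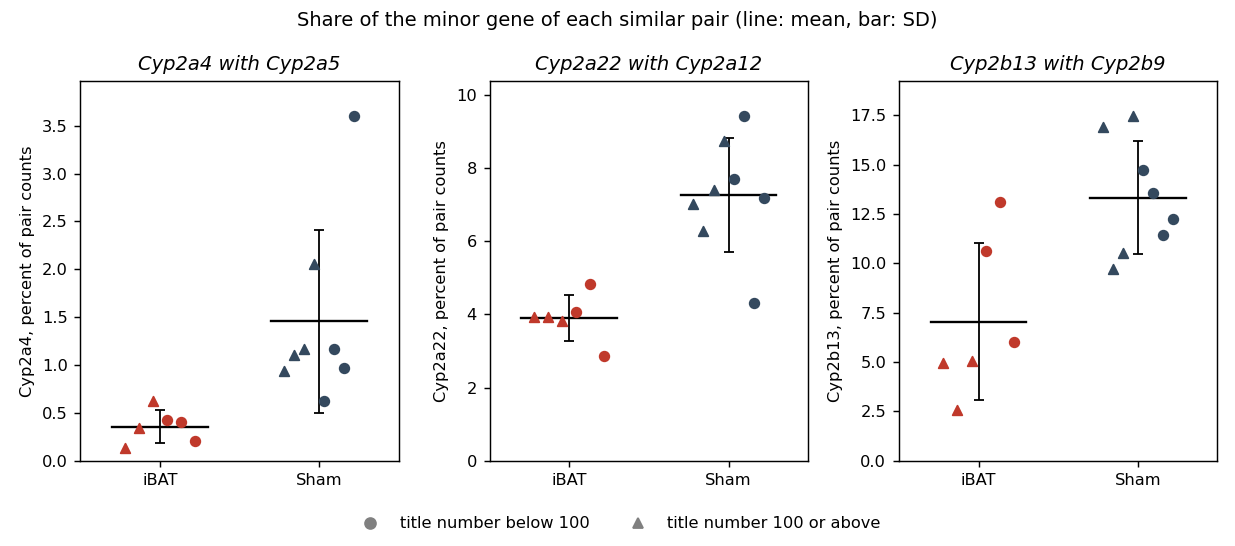
Share of the less abundant gene in the estimated counts of each similar pair, in percent per library, with iBAT left of Sham, the mean as a line and the SD as a bar. All 6 iBAT libraries lie below all 8 Sham libraries for Cyp2a4, at 0.129% to 0.622% against 0.628% to 3.61%.

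The sample titles carry numbers that fall below 100 (3 iBAT, 4 Sham) or at 100 and above (3 iBAT, 4 Sham), and what they stand for is not given. With the group in the model, Cyp2a12 and Cyp2d9 were lower in the range of 100 and above, by log2 differences of -0.40 ± 0.11 (adjusted p = 0.0144) and -0.46 ± 0.13 (adjusted p = 0.0172, edgeR's quasi-likelihood test), beside 23.4% of all tested genes called for the range, 12.5% higher and 10.9% lower. Cyp2b13 stood in iBAT livers at 4.98 to 9.22 CPM in the range of 100 and above and 10.8 to 34.9 CPM below 100, while Sham livers stood at 25.05 to 64.4 and 24.8 to 52.3 CPM. Its iBAT to Sham log2 fold change was -2.64 ± 0.39 in the range of 100 and above (adjusted p = 0.0143) and -0.61 ± 0.44 below 100 (adjusted p = 0.721). The difference between these effects, -2.03 ± 0.64, did not pass over all genes (adjusted p = 0.184). By that interaction test in edgeR 0 of 13131 genes were called, with 2275 at an unadjusted p under 0.05. In the range of 100 and above Cyp2a4 (-1.90), Cyp2a22 (-0.97), Cyp2b9 (-0.70), Cyp2b13 and Cyp2d9 (0.50) were all called. In that fit 14.5% of all tested genes were called higher and 11.5% lower. Below 100 none of the 8 members was called, where 3 genes were called in all. Cyp2d9 had nearly the same value in both, 0.54 below 100.

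**Figure D4:**
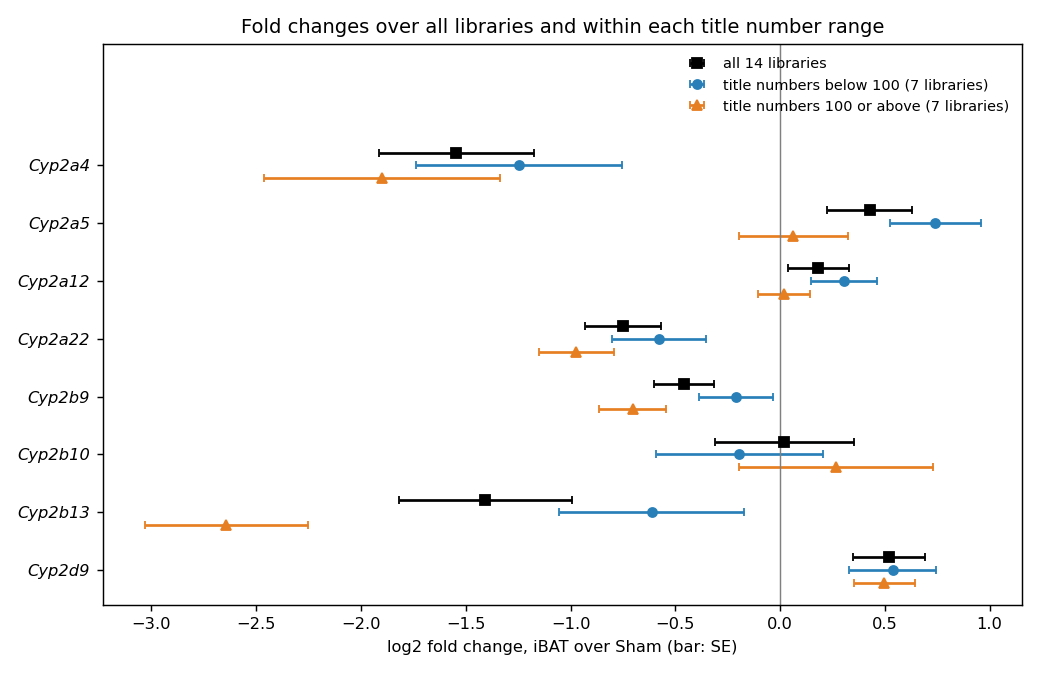
Log2 fold change, iBAT over Sham, of each member with its SE, over all 14 libraries and within each range of title numbers. Cyp2b13 differs the most between the ranges, and Cyp2d9 hardly at all.

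Correlations between members across the 14 libraries were computed with group means removed. Of 28 pairs of members, none had a Pearson correlation with an adjusted permutation p under 0.05, and 2 had such a Spearman correlation. Cyp2b9 and Cyp2b13 had r = 0.69 (adjusted permutation p = 0.0600) and rho = 0.75 (0.0440), with r = 0.65 without the 2 libraries farthest from the median. Within the ranges r was 0.90 below 100 and 0.38 at 100 and above (7 libraries each). Cyp2a22 and Cyp2b13 had r = 0.69 (0.0600) and rho = 0.75 (adjusted permutation p = 0.0440), with r = 0.68 without the 2 farthest libraries and 0.60 and 0.61 within the ranges. Cyp2a12 and Cyp2d9 had r = 0.70 (adjusted permutation p = 0.0600) and rho = 0.64 (0.116), with r = 0.67 below 100 and -0.35 at 100 and above. The same adjusted permutation p for r was found for Cyp2a4 with Cyp2a22 (r = 0.66, rho = 0.67) and Cyp2a5 with Cyp2b13 (0.67, 0.62). Within the ranges r was 0.57 below 100 and 0.77 at 100 and above for the former, and 0.43 and 0.68 for the latter.

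The genes most like a member in this residual variation were sought among 11616 genes with at least 1 CPM, as a description over 14 libraries. For Cyp2a4 they were Frmd4b (r = 0.87, rho = 0.85), Msl1 (0.86, 0.82) and Gosr1 (0.86, 0.75). For Cyp2b9 they were Naaladl2 (0.87, 0.83), Ehbp1 (0.83, 0.79) and Polr1b (0.81, 0.85), and for Cyp2d9 they were Tamm41 (0.91, 0.97), Upf3a (0.90, 0.93) and Hyal2 (0.89, 0.86). Within the title number ranges (7 libraries each) r for the genes like Cyp2d9 was 0.80, 0.74 and 0.86 below 100 and 0.89, 0.90 and 0.91 at 100 and above, in the same order. For the genes like Cyp2a4 and Cyp2b9 it lay between 0.77 and 0.95. All 9 genes were picked by r over the same 14 libraries, so high r within the ranges follows in part from that choice. Of these 9 only Frmd4b was itself called between the groups, at a log2 fold change of -0.55 ± 0.14 (adjusted p = 0.0345).

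Neighbouring P450 genes did not pass the test. Of the other genes of the CYP2A and CYP2B cluster that were listed, 2 of 6 could be tested, Cyp2f2 (0.24 ± 0.16, adjusted p = 0.326) and Cyp2g1 (0.64 ± 0.30, 0.165). Of the other CYP2D genes 5 were tested and none was called, with a median of 0.21. Over all tested genes 7.54% were called and the median was -0.02. With so few relatives tested, the lack of a call among them is near that share. Cyp2d10, the most abundant of these relatives of Cyp2d9 after Cyp2d26, stood at 0.39 ± 0.14 (adjusted p = 0.0890). Cyp2d40 stood at 0.49 ± 0.16 (adjusted p = 0.0598), Cyp2d26 at 0.21 ± 0.13, Cyp2d22 at 0.13 ± 0.13 and Cyp2d12 at -0.42 ± 0.23.

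None of 13 xenobiotic receptors and regulators was called by edgeR's quasi-likelihood test over all libraries (median -0.07). The CAR gene Nr1i3 stood at 229 ± 51.7 CPM in iBAT livers (SD, n = 6) and 197 ± 54.2 CPM in Sham livers (SD, n = 8), the PXR gene Nr1i2 at 76.3 ± 9.75 and 63.5 ± 10.1 CPM, and Hnf4a, a hepatocyte identity factor, at 428 ± 108 and 435 ± 74.1 CPM. Nr1i2 was called higher after removal of length and GC trends (0.39, adjusted p = 0.0452), and likewise with the title number range as a covariate beside that (0.39, 0.0214). Of 24 tested CAR and PXR targets 3 rose and none fell, beside 3.31% higher and 4.23% lower among all tested genes. The median was -0.16, beside -0.02 over all tested genes. The 3 were the sulfotransferase gene Sult1d1 (0.72 ± 0.17), the P450 gene Cyp2c54 (1.68 ± 0.42) and the carboxylesterase gene Ces2a (0.51 ± 0.14). None of these 3 kept its call without iBAT replicate 1 (adjusted p = 0.0815 for Sult1d1, 0.0798 for Cyp2c54 and 0.0669 for Ces2a), and of 14 such fits Sult1d1 was called in 8, Cyp2c54 in 9 and Ces2a in 5. After removal of length and GC trends Cyp2c54 was not called (adjusted p = 0.0733). Of 13 genes of electron transfer and heme 1 was called, a share near that of all tested genes. It was Hmox1, the heme oxygenase (-0.76 ± 0.19, adjusted p = 0.0302), which lost its call in 5 of 14 fits that left out 1 library, with an adjusted p = 0.0799 without iBAT replicate 1. Por, at 470 ± 135 CPM in iBAT livers and 329 ± 69.7 CPM in Sham livers, stood at 0.51 ± 0.17 and did not pass (adjusted p = 0.0658). Por was called higher by DESeq2 (adjusted p = 0.0295), with the title number range as a covariate (0.0453) and once trends with length and GC were removed (0.67, 0.0317).

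Among 10 tested growth hormone pathway genes 3 rose and none fell (median 0.30). Over all tested genes 3.31% were higher and 4.23% lower, with a median of -0.02. The feedback inhibitors Socs2 and Cish, both STAT5 targets, rose by 1.384 ± 0.29 (adjusted p = 0.0185) and 2.01 ± 0.47 (0.0284), and the transcription factor gene Onecut1 by 1.34 ± 0.39 (0.0487). None of these 3 was called without iBAT replicate 1, with adjusted p = 0.0549 for Socs2, 0.0771 for Cish and 0.0984 for Onecut1. Of 14 fits that each left out 1 library, Socs2 was called in 13, Cish in 9 and Onecut1 in 3. Stat5b (-0.30 ± 0.12, adjusted p = 0.113) and Bcl6, a repressor that binds STAT5 sites (-0.64 ± 0.58, 0.473), were not called. The value of Stat5b turned to 0.03 after removal of length and GC trends, while it was called lower with the title number range as a covariate (-0.30, adjusted p = 0.0489) and with libraries scaled by totals alone (-0.54, 0.0364). Cux2, a female-type regulator, had 3 to 20 estimated counts in iBAT libraries and 4 to 15 in Sham libraries and was not tested. Of 23 other male-biased genes 8 rose and none fell, with a median of 0.59, beside the same shares and median of all tested genes. The 6 with the smallest adjusted p were Hsd3b5, Mup12, Slco1a1, Cyp7b1, Ugt2b1 and Cyp4a12b, at log2 fold changes from 0.55 to 4.79, and each of them was called in all 14 fits that left out 1 library. Of 18 other female-biased genes none was called, with a median of 0.12, the nearest being Cyp4a10 (0.78 ± 0.24, adjusted p = 0.0505) and Slc22a27 (-0.62 ± 0.19, 0.0527). The lists were chosen with earlier results of these libraries known, so their counts are a description.

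**Figure D5:**
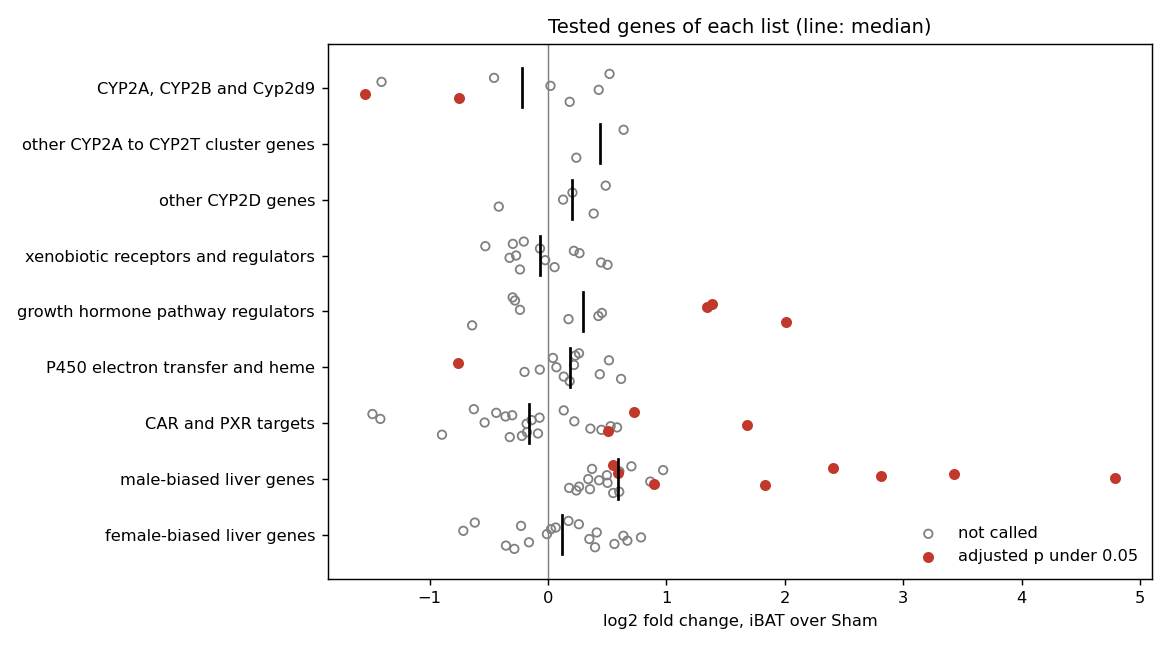
Log2 fold change, iBAT over Sham, of each tested gene of the members and of the listed related genes, with called genes filled and the median as a line. The male-biased list has 8 of 23 tested genes called, all higher, and the female-biased list has none of 18. Over all tested genes 3.31% were called higher and 4.23% lower.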

How the data were processed

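Liver RNA of 6 iBAT and 8 Sham samples was sequenced as stranded mRNA libraries, per the labels' protocols. The submitters' processing notes name fastp 0.20, kallisto 0.46.1, DESeq2 1.38 and GRCm39, with no role or order, and no source used here gives kallisto's options. The authors deposited per transcript an estimated count, not normalized, a TPM and lengths, per the file headers. TPM deposited by the authors describes levels per length. Where stated, it also sets the groups side by side without TMM scaling, with a test for the Cyp2a4 share alone.

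Transcripts were matched to GENCODE M21 (120661 of 128803, with 99.4% to 99.5% of counts), summed per gene and rounded. The filter filterByExpr, TMM scaling and the quasi-likelihood F test of edgeR 4.0.16 (R 4.3.3) compared iBAT with Sham, with Benjamini-Hochberg adjustment over 13131 genes and calls at an adjusted p under 0.05. CPM are counts relative to the TMM-scaled library size. Correlations used log2 CPM with a prior count of 2. The 95% intervals use the SE and residual degrees of freedom of the fit.

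The members and lists were chosen with earlier results of these data known. All members were named. Of listed genes, up to 6 called ones per list and fixed regulators were named. Genes outside that rule (Cyp2f2, Cyp2g1, the other tested CYP2D genes, Cyp4a10, Slc22a27) were chosen after their values were seen. The labels do not say outright that samples are separate animals, so p-values measure the spread between samples.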

Additional observations from a re-analysis of the deposited data

Results flagged for a closer look

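The level of Cyp2d9 in iBAT replicate 6, 2115 CPM, stood farther from the other 5 iBAT libraries than Dixon's test allows at the 95% level. Of 22 groups of values examined, this was the only such value, and chance gives about 1 in 20. Without that library the Cyp2d9 log2 fold change was 0.36, against 0.52 with it, and it was not called in either fit (adjusted p = 0.150 and 0.0650).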

How the results depend on the processing

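All fold changes below are log2, iBAT over Sham, and shares called are of all tested genes. In fits that each left out 1 of 14 libraries, 0.385% to 7.44% were called higher and 0.657% to 7.12% lower, and 0 to 5 members were called. Cyp2a4 ranged from -1.77 to -1.36 (11 of 14 fits called), Cyp2a22 from -0.89 to -0.65 (10), Cyp2b13 from -1.86 to -1.22 (2), Cyp2b9 from -0.54 to -0.39 (1) and Cyp2d9 from 0.36 to 0.62 (1). The difference of the Cyp2a4 share ranged from -1.22 to -0.79 percentage points. DESeq2 (1.42.0) called 7.55% higher, 6.58% lower and 5 members, adding Cyp2b9 (-0.44), Cyp2b13 (-1.38) and Cyp2d9 (0.54). The title number range as a covariate gave 10.5%, 9.08% and 5, with Cyp2b9 (-0.45), Cyp2b13 (-1.55) and Cyp2d9 (0.52) called. Title numbers of 100 or above alone gave 14.5%, 11.5% and 5 (Cyp2b9 -0.70, Cyp2b13 -2.64, Cyp2d9 0.50). Those below 100 alone gave 0.0154%, 0.00771% and 0, with Cyp2a4 at -1.25, Cyp2a22 at -0.58 and the Cyp2a4 share at -1.25 points (exact permutation p = 0.0857, the smallest possible being 0.0286). Without the count filter 1.13% were higher, against 3.31% with it, and 1 member was called, Cyp2a4 (-1.54, adjusted p = 0.0685) being lost. Effective-length offsets gave 1.04%, 1.36% and 1, losing Cyp2a22 (-0.72, adjusted p = 0.0596). Removal of length and GC trends gave 1.97% lower, and with the range as a covariate 5.59% higher, where Cyp2d9 was called (0.48). Merging near-identical genes left 1 member feature called, with Cyp2a4 and Cyp2a5 together at 0.41 and Cyp2a22 and Cyp2a12 together at 0.13, sums in which Cyp2a5 and Cyp2a12 hold most of the counts, and Cyp2b9 with Cyp2b13 at -0.55.

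Chosen after seeing the data, protein-coding transcripts alone left 1 member called, Cyp2a4 (-1.55), while Cyp2a22 (-0.67) lost its call. Scaling by totals without TMM, also chosen then, shifted the median of all genes to -0.25, with 0.891% higher and 21.1% lower, 4 members called, Cyp2b9 at -0.70 and Cyp2b13 at -1.69. The cause of the changes between settings was not tested. For the other named genes 420 results kept their side of the threshold, 65 lost it and 9 passed it. No paired analysis was possible because the labels give no pairing of samples between the groups. Cyp2b10 and Cyp2a4 are limited by counts as low as 10 and 30.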
